A study of Homo sapiens with 6 samples.

Results

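The EGF receptor family and its ligands were followed through the knockdown of DLEU1, a long noncoding RNA, in oral squamous cell carcinoma (OSCC) cells. The genes are the receptors EGFR, ERBB2, and ERBB3, the ligands TGFA, AREG, EREG, HBEGF, BTC, and EPGN, and the receptor inhibitor ERRFI1. Every array probe that the files name after one of them was taken, which gave 17 probes of 10 genes among 36337 gene names on the array. HSC-3, KON, and Ca9-22, 3 established OSCC cell lines, were transiently transfected with siDLEU1-2, a small interfering RNA (siRNA) against DLEU1, or with a universal negative control siRNA (siCtrl). Total RNA was collected 72 h later, and 100 ng per sample was labeled with Cy3 and hybridized to a single-color Agilent expression array. There were 6 arrays, 3 with siCtrl and 3 with siDLEU1-2, 1 for each line and siRNA. The cell lines are therefore the only replicates, and no error can be given for a difference seen in a single line. A single siRNA stands for the knockdown, so loss of DLEU1 and other effects of this siRNA cannot be told apart.

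EGFR, ERBB2, and ERBB3 are receptor tyrosine kinases of the plasma membrane. The ligands are made as membrane-bound precursors and cut loose by sheddases of the ADAM family. Ligand binding lets the receptors pair and phosphorylate each other, which recruits adapters and starts the RAS-RAF-ERK and PI3K-AKT cascades. ERBB2 has no known ligand of its own, ERBB3 has a weak kinase and binds neuregulins, and EGFR is commonly abundant in squamous carcinomas. ERRFI1, also called MIG6, binds the activated kinase domains and blocks them, and its own transcription rises with growth factor signaling and with stress.

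The strands of siDLEU1-2 are shown because this single RNA defines the treated arrays. In the antisense strand, the capitals mark the seed, positions 2 to 8 from the 5′ end, which guides pairing with unintended transcripts.
siDLEU1-2 sense: cagggguuaucgcacuuaagc
siDLEU1-2 antisense: uUAAGUGCgauaaccccugua
The DNA complement of the seed, GCACTTA, was searched in the sense direction of the 60-base array probes. It stood in 0 of the 17 probes of the family and in 57 of all 19956 tested probes (0.286%), and the rest of each transcript was not searched.
Probes from coding sequence are shown for a receptor and for a pair of ligands, so that it can be seen which stretch of the transcript was read. Each is given 5′ to 3′ along the transcript, with hg19 coordinates from the files.
EGFR probe, chr7:55231446-55231505, plus strand: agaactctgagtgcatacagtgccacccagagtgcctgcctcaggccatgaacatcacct
AREG probe, chr4:75318293-75318352, plus strand: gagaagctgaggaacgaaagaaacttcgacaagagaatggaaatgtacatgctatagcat
TGFA probe, chr2:70683472-70683531, minus strand: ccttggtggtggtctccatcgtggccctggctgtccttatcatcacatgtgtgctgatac

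The targeted RNA was checked first. A level below is the log2 processed signal of a probe minus the 75th percentile of its array, so that 0 is that percentile. The DLEU1 probe (NR_002605) was in HSC-3 at 1.39 after siCtrl and at -2.71 after siDLEU1-2, at 2.16 and -1.48 in KON, and at 1.56 and -1.88 in Ca9-22. All siDLEU1-2 arrays lay below all siCtrl arrays. Log2 fold changes were taken within each line and averaged -3.72 ± 0.34 (SD over n = 3 cell lines, limma adjusted p = 0.0227). When the block was left out, limma did not call even DLEU1 (adjusted p = 0.183), so the calls below rest on pairing the arrays by line. With 1 line left out, 4 arrays remained, and limma called 0 of all 19956 tested probes without HSC-3, 0 without KON, and 244 (1.22%) without Ca9-22, so a call lost in these fits is shared with all or nearly all probes. Between 43.0% and 45.7% of the probes on an array were well above background. Of the markers of squamous epithelium, 9 of 10 were well above background on all arrays, and TP63 was so on 5. Their summed signal, in multiples of the 75th percentile, was 404 to 1414 after siCtrl and 327 to 744 after siDLEU1-2. The sum hides opposite moves, as 5 of the 10 were called lower, 1 higher, and 4 not called. The mean log2 fold changes of those lower were -2.46 for TP63 (not well above background after siDLEU1-2 in Ca9-22), -2.12 for DSG3, -1.49 at both probes of PKP1, -1.33 for KRT6A, and -0.81 for SFN, with limma adjusted p-values of 0.0227 to 0.0470. CDH1, which encodes E-cadherin, was higher by 2.92 (adjusted p = 0.0227). Of the markers of other cell types, COL1A1 and PMEL were well above background on all arrays, while COL1A2, COL3A1, and PDGFRB were so on none. A probe each of VWF and CDH5 was so on 5 arrays. PMEL, VWF, and CDH5 were not called by limma. The fibroblast markers summed to 0.749 to 0.901 after siCtrl and to 1.68 to 2.93 after siDLEU1-2. Nearly all of it came from COL1A1, whose level was -0.65 to -0.30 and then 0.62 to 1.43. COL1A1 was called higher, by a mean of 1.45 (limma adjusted p = 0.0423). The sums were 0.312 to 0.945 and 0.485 to 1.78 for endothelial markers, 0.241 to 1.65 and 0.249 to 3.12 for melanocyte markers, and 0.216 to 0.524 and 0.297 to 0.770 for leukocyte markers. The part of these shifts in the results was not tested. In a lysate of many cells, fewer cells of a kind and less RNA per cell cannot be told apart.

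Of the 17 probes, 14 probes of 8 genes passed the filter, under which each cell line needed a signal well above background on 1 or both of its arrays. EREG, EPGN, and 1 of the 3 ERBB3 probes did not. With limma at an adjusted p below 0.05, 3 of the 14 probes (21.4%) were called, beside 8.50% of all 19956 tested probes. With normexp background correction these shares were closer, 2 of 14 probes (14.3%) beside 11.6%. ERRFI1 was the 1 probe called higher, where 3.98% of all probes were, and 1 probe each of EGFR and ERBB3 made up the 2 called lower, where 4.52% of all probes were. ERRFI1 was also the only one of the 14 over 2-fold in all 3 lines, counted without regard to direction (7.14%), beside 4.38% of all probes. The plot of log2 fold changes sets the lines side by side. The mean fold change was below 0 for 12 of the 14 probes (85.7%), beside 49.2% of all probes, and the median of the means was -0.57, beside 0.01. In HSC-3 the median over the 14 probes was -0.09, in KON it was -0.53, and in Ca9-22 it was -0.81. These are counts of probes, several of which read the same gene.

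**Figure D1:**
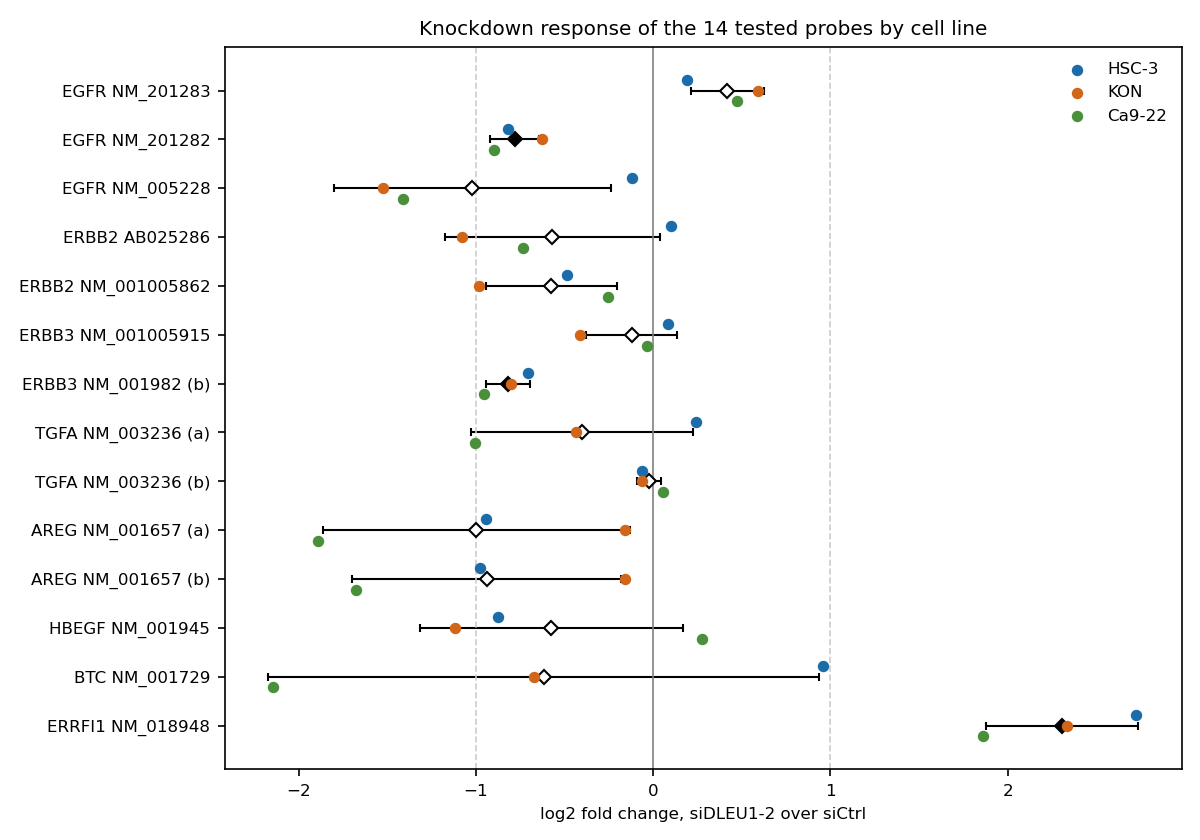
Log2 fold change (x axis, siDLEU1-2 over siCtrl) of the 14 tested probes, with a colored point for each cell line and a diamond with its bar for the mean ± SD over 3 lines. Diamonds are filled where limma called the probe, dashed lines mark 2-fold, and (a) and (b) separate probes of the same transcript by rising coordinate. The BTC points of KON and Ca9-22 rest on siDLEU1-2 values that were not well above background. ERRFI1 lies to the right of 2-fold in every line, whereas AREG, HBEGF, and EGFR (NM_005228) spread widely between lines.

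ERRFI1, the inhibitor, rose in all lines. Its probe (NM_018948, chromosome 1, 8072208 to 8072267, minus strand) was at 2.66 (siCtrl) and 5.38 (siDLEU1-2) in HSC-3, at 2.78 and 5.12 in KON, and at 3.72 and 5.59 in Ca9-22. The lowest siDLEU1-2 array lay above the highest siCtrl array, and the lines were closer together after siDLEU1-2 than after siCtrl. HSC-3 rose 6.60-fold, KON 5.05-fold, and Ca9-22 3.64-fold. On the log2 scale this averaged 2.31 ± 0.43 (SD over n = 3 cell lines, limma adjusted p = 0.0247). All 6 values were well above background, and with normexp background correction the mean was 2.26 (adjusted p = 0.0120). The mean was 2.10 without HSC-3 and 2.29 without KON, where no probe was called, and 2.53 without Ca9-22, where ERRFI1 was called (adjusted p = 0.0467). The 3 cell lines were not called apart in ERRFI1 by limma, and the widest difference, Ca9-22 over KON, was 0.70 (adjusted p = 0.0964).

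**Figure D2:**
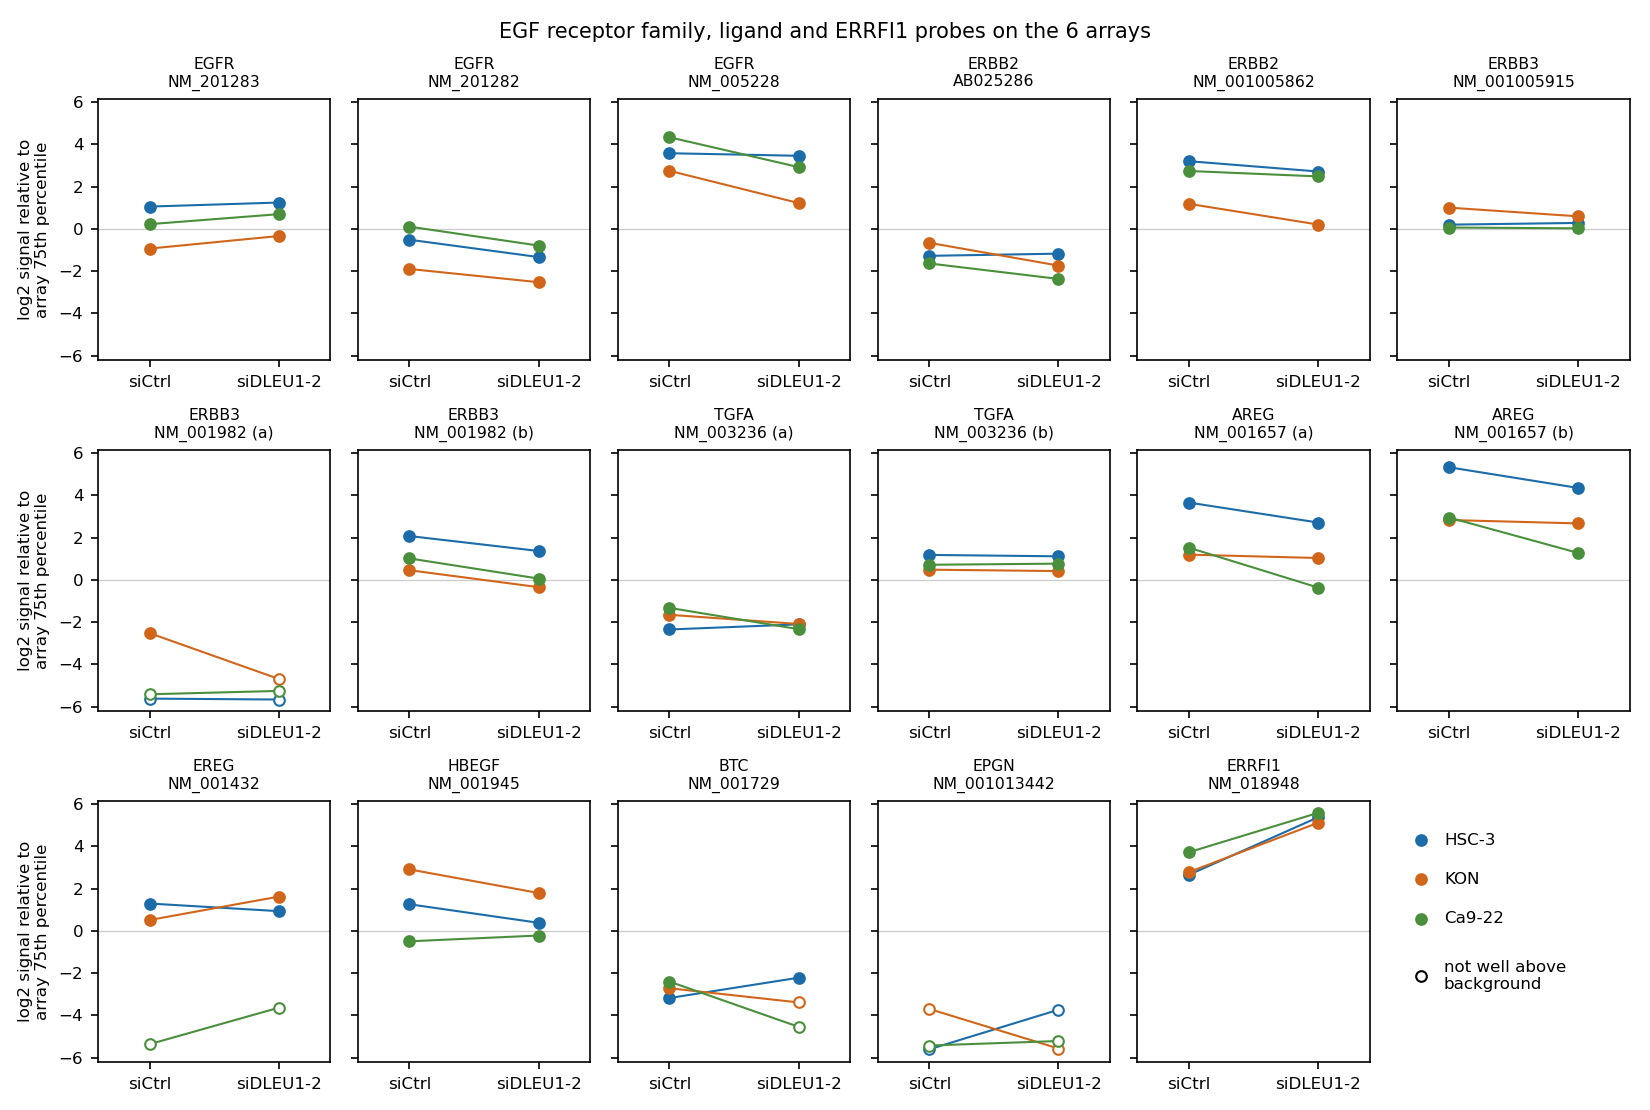
Level of each of the 17 probes (y axis, log2 signal relative to the 75th percentile of the array) after siCtrl and siDLEU1-2, with a line joining both arrays of a cell line. Open points were not well above background. All ERRFI1 lines climb by 1.86 to 2.72, the EGFR (NM_201283) lines climb while the EGFR (NM_201282) lines fall, and EREG in Ca9-22 and EPGN are open throughout. Heights are not comparable between panels, because each probe has its own efficiency.

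EGFR was read by 3 probes, which did not move together. In the order of the gene, these are NM_201283 (chromosome 7, 55224558 to 55224617), NM_201282 (the EGFR probe printed above), and NM_005228 (55274841 to 55274900), all on the plus strand. NM_005228 is the full-length receptor, whereas NM_201283 and NM_201282 are shorter variants that lack the kinase. The files name each probe after 1 transcript, NM_201284 is also listed for the NM_201282 probe, and which further EGFR transcripts share a probe sequence was not analysed here. A probe named after a shorter variant may also read the full-length receptor. A change at a probe is therefore not assigned to the transcript it is named after.

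The NM_005228 probe, toward the end of the gene, was at 3.58 (siCtrl) and 3.46 (siDLEU1-2) in HSC-3, at 2.75 and 1.22 in KON, and at 4.33 and 2.92 in Ca9-22. It was lower in KON and Ca9-22 and nearly level in HSC-3, and the groups overlapped. The within-line log2 fold changes were -0.12, -1.53, and -1.41, and their mean of -1.02 ± 0.78 was not called (adjusted p = 0.121 from limma). The NM_201282 probe was at -0.52 and -1.34 in HSC-3, at -1.90 and -2.53 in KON, and at 0.10 and -0.79 in Ca9-22. It was lower after siDLEU1-2 in every line, although the groups overlapped, with KON lowest on both sides. Its fold changes of -0.82, -0.63, and -0.90 lay close together, and their mean of -0.78 ± 0.14 was called lower (adjusted p = 0.0455). That call was lost with normexp background correction (-0.47, adjusted p = 0.0758), and with 1 line left out the mean lay between -0.86 and -0.72 and was not called.

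The NM_201283 probe went the other way, from 1.05 to 1.24 in HSC-3, from -0.93 to -0.34 in KON, and from 0.22 to 0.69 in Ca9-22. It was higher after siDLEU1-2 in every line, by a mean of 0.42 ± 0.21 that was not called (adjusted p = 0.155 from limma). Within each line, the fold change of NM_201282 was therefore below that of NM_201283, by log2 gaps of 1.01, 1.22, and 1.37 for HSC-3, KON, and Ca9-22. For NM_005228 against NM_201283 the gap was 0.31, 2.12, and 1.89. With normexp the same gaps were 0.63, 0.65, and 1.04 and then 0.31, 1.82, and 1.77, so the 3 probes kept this order against NM_201283 in all lines. The probes changed unequally, and this difference between probes was not tested.

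ERBB2, the receptor without a known ligand, was read by a probe with 10 spots per array (NM_001005862, chromosome 17, 37884829 to 37884888). It was at 3.20 (siCtrl) and 2.71 (siDLEU1-2) in HSC-3, at 1.18 and 0.20 in KON, and at 2.74 and 2.48 in Ca9-22. The values were lower after siDLEU1-2 in each line, and KON was the lowest line on both sides. The SD of the 10 spots was 0.03 to 0.06 on an array, which covers error within an array only. The mean log2 fold change of -0.57 ± 0.37 was not called (adjusted p = 0.132 from limma). A second ERBB2 probe, for an mRNA described in the files as 5′ UTR (AB025286, 37851136 to 37851195), had fold changes of 0.10, -1.08, and -0.73 and was not called (adjusted p = 0.235).

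ERBB3, the receptor of neuregulins, was read by 3 probes along chromosome 12. The probe nearest the end of the gene (NM_001982, 56496160 to 56496219) was at 2.07 (siCtrl) and 1.36 (siDLEU1-2) in HSC-3, at 0.45 and -0.35 in KON, and at 1.01 and 0.06 in Ca9-22. It fell by a similar amount in each line, while the groups overlapped, as HSC-3 stood above the other lines. The fold changes of -0.71, -0.80, and -0.95 averaged -0.82 ± 0.12 and were called lower (adjusted p = 0.0404 from limma), also with normexp (-0.69, adjusted p = 0.0254). With 1 line left out the mean lay between -0.88 and -0.76 and was not called. The probe of the short transcript variant s (NM_001005915, 56479217 to 56479276) had fold changes of 0.08, -0.41, and -0.04 and was not called (adjusted p = 0.663). The remaining NM_001982 probe (56482380 to 56482439) was well above background only after siCtrl in KON, where it was at least 1.99-fold lower after siDLEU1-2.

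Among the ligands, AREG, which encodes amphiregulin, had the lowest mean fold changes, with values that varied widely between lines. The probe toward the end of the gene (NM_001657, chromosome 4, 75320518 to 75320577) was at 5.33 (siCtrl) and 4.35 (siDLEU1-2) in HSC-3, at 2.83 and 2.67 in KON, and at 2.95 and 1.27 in Ca9-22. It was lower after siDLEU1-2 in each line, least in KON. The AREG probe printed above gave nearly the same fold changes, -0.94, -0.16, and -1.89 beside -0.98, -0.16, and -1.68. Neither mean was called, at -0.997 ± 0.866 (adjusted p = 0.147 from limma) and -0.94 ± 0.76 (adjusted p = 0.134). In hg19 a near-identical AREG locus lies close by, and the probes may not tell the copies apart.

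HBEGF, a heparin-binding ligand of EGFR and ERBB4 (NM_001945, chromosome 5, 139713052 to 139713111, minus strand), was at 1.26 (siCtrl) and 0.38 (siDLEU1-2) in HSC-3. It was at 2.91 and 1.79 in KON and at -0.50 and -0.22 in Ca9-22. It was lower after siDLEU1-2 in HSC-3 and KON and slightly higher in Ca9-22, the line with the lowest values. The mean log2 fold change was -0.57 ± 0.74 and was not called (adjusted p = 0.292 from limma).

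EREG, which encodes epiregulin (NM_001432, chromosome 4, 75254009 to 75254068), was above the detection limit in 2 of the 3 lines. It was at 1.29 (siCtrl) and 0.93 (siDLEU1-2) in HSC-3 and at 0.51 and 1.62 in KON, whereas in Ca9-22 it was not well above background on either array. HSC-3 exceeded Ca9-22 at least 22.3-fold and KON exceeded it at least 21.6-fold, from the mean of both arrays of the line against the detection limit in Ca9-22. After siDLEU1-2, EREG was 1.28-fold lower in HSC-3 and 2.15-fold higher in KON, and the probe was not tested because of Ca9-22.

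TGFA, which encodes transforming growth factor alpha, had the probe whose mean fold change was nearest to 0 among the 14. This coding probe, printed above, was at 1.18 (siCtrl) and 1.11 (siDLEU1-2) in HSC-3, at 0.48 and 0.41 in KON, and at 0.71 and 0.77 in Ca9-22. The values within a line nearly coincided, and the mean of their differences was -0.03 ± 0.07 (adjusted p = 0.922 from limma). A dimmer TGFA probe nearer the end of this minus-strand gene (70675319 to 70675378) spread more, with fold changes of 0.24, -0.43, and -1.01 and an adjusted p of 0.387. It was at -2.35 to -1.33 after siCtrl and -2.33 to -2.09 after siDLEU1-2, and all these values were well above background.

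BTC, which encodes betacellulin (NM_001729, chromosome 4, 75675838 to 75675897, minus strand), was near the detection limit. It was at -3.18 (siCtrl) and -2.22 (siDLEU1-2) in HSC-3, whereas in KON and Ca9-22 it was well above background only after siCtrl, at -2.72 and -2.40. It was at least 1.59-fold lower in KON and at least 1.85-fold lower in Ca9-22, and 1.95-fold higher in HSC-3. The mean log2 fold change, which uses the dim values as measured, was -0.62 and was not called (adjusted p = 0.543 from limma), and it was -0.20 (adjusted p = 0.778) once dim values were set to the floor of detection. EPGN, which encodes epigen (NM_001013442, chromosome 4, 75178782 to 75178841), stayed below the detection limit on all 6 arrays.

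Between cell lines, 10 of the 14 probes (71.4%), of 6 genes, were called in at least 1 comparison, beside 59.6% of all probes. These tests compare the mean of both arrays of a line in the same fit, so that siRNA is a term, and the arrays of a line are not repeat cultures of 1 condition. In KON against HSC-3, 9 of the 14 probes (64.3%) were called, beside 36.2% of all probes, with 8 lower and 1 higher in KON. In Ca9-22 against HSC-3, 4 probes (28.6%) were called, all lower, beside 36.6% of all probes. In Ca9-22 against KON, 6 probes (42.9%) were called, 4 higher and 2 lower, beside 33.2% of all probes. The share in KON against HSC-3 was above that of all probes, whereas the other shares were closer to it, and probes of 1 gene share their source.

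By its NM_005228 probe, EGFR was lowest in KON after either siRNA, whereas Ca9-22 was above HSC-3 after siCtrl (4.33 and 3.58) and below it after siDLEU1-2 (2.92 and 3.46). The mean difference of 0.11 between Ca9-22 and HSC-3, which averages over this turn, was not called (adjusted p = 0.837 from limma), while KON was lower, with KON minus HSC-3 at -1.53 on the log2 scale (adjusted p = 0.0404). The other EGFR probes also placed KON lowest. ERBB2 (NM_001005862) ran from HSC-3 to Ca9-22 to KON, with no call between HSC-3 and Ca9-22 (-0.35, adjusted p = 0.288) and with Ca9-22 above KON by 1.92 (adjusted p = 0.00973). The AB025286 probe of ERBB2 had another order, with Ca9-22 lowest. By limma its KON minus HSC-3 was 0.03 (adjusted p = 0.955) and its Ca9-22 minus KON was -0.80 (adjusted p = 0.119), and neither was called. ERBB3 (56496160 to 56496219) was highest in HSC-3, with KON minus HSC-3 at -1.66 (adjusted p = 0.00723) and Ca9-22 minus HSC-3 at -1.18 (adjusted p = 0.0113), and Ca9-22 minus KON, at 0.48 with an SE of 0.17, was not called (adjusted p = 0.0900), although Ca9-22 was above KON after either siRNA. The variant s probe of ERBB3 had another order, with Ca9-22 minus KON at -0.75 (adjusted p = 0.0455).

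For the ligands, AREG was highest in HSC-3 at the probe toward the end of the gene, with log2 differences of -2.09 for KON minus HSC-3 (adjusted p = 0.0190 from limma) and -2.73 for Ca9-22 minus HSC-3 (adjusted p = 0.0109). KON and Ca9-22 were not called apart (-0.64 for Ca9-22 minus KON, adjusted p = 0.253). HBEGF ran in another order, with KON above HSC-3 by 1.53 (adjusted p = 0.0367) and Ca9-22 minus KON at -2.71 (adjusted p = 0.0121). HSC-3 and Ca9-22 were not called apart in HBEGF (-1.18, adjusted p = 0.0686). HSC-3 thus had the most AREG, and KON the most HBEGF.

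**Figure D3:**
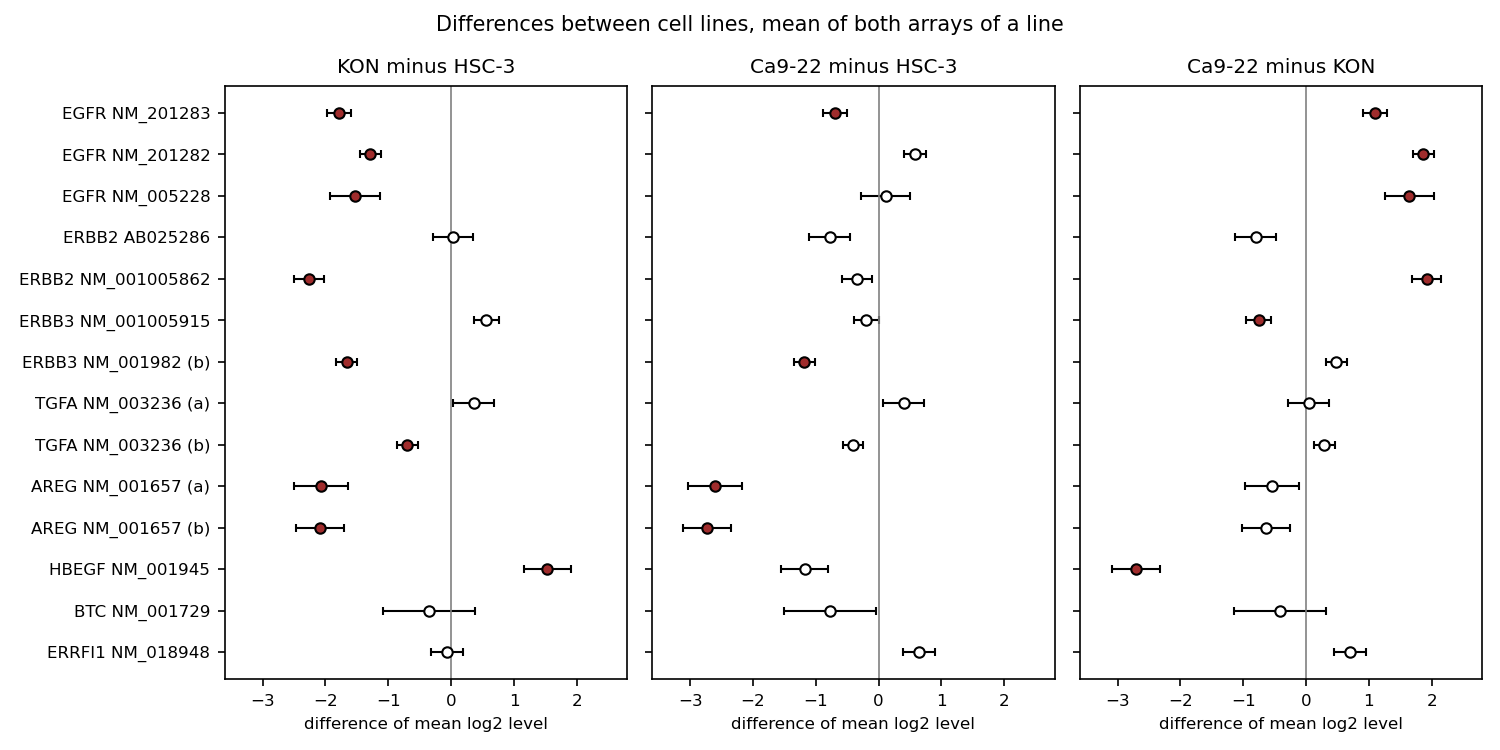
Difference between cell lines in the mean log2 level of both arrays (x axis, log2 units) for the 14 tested probes, with bars for the SE from limma and filled points for called differences. The 3 EGFR probes and ERBB2 (NM_001005862) lie to the left of 0 in KON minus HSC-3 and to the right in Ca9-22 minus KON, HBEGF does the reverse, and both AREG probes are called lower than HSC-3 in both other lines.

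The genes whose levels over the 6 arrays were most like those of EGFR (NM_005228) were sought among 13667 probes with a RefSeq symbol, out of 18094 that passed the detection limit on every array. They were VPS13C, SLC12A4, and MID1IP1, with Pearson's r of 0.999, 0.998, and 0.996, which is a description over 6 arrays that share lines and siRNAs. Those most like ERRFI1 were UBE4A (0.994), VEZT (0.992), and GADD45B (0.991).

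Of 67 other genes of the pathway, 62 had a tested probe. By limma, 3 were called higher and 4 lower, and 55 were not called, so that 11.3% were called beside 9.69% of all gene names with a tested probe. Of the 6 in the remaining receptor and ligands, ERBB4, EGF, NRG2, and NRG3 were too dim to test, and NRG1 and NRG4 were not called (1 of them had an unadjusted p below 0.05). Of the 4 sheddases and their carriers, ADAM17, the main sheddase of AREG, HBEGF, and TGFA, was called higher, with log2 fold changes of 0.91, 0.97, and 0.61. It lay between 1.92 and 2.14 after siCtrl and at 2.75 or above after siDLEU1-2, so the groups did not overlap, and it averaged 0.83 ± 0.19 higher (limma adjusted p = 0.0453). The call was lost when arrays were centered on their median (0.76, adjusted p = 0.0517). Of 10 adapters and effectors, 9 were tested and limma called 0, and the median of their probes was -0.10. A probe with an unadjusted limma p below 0.05 was found for 6 of the 9, where 5893 of all 19956 tested probes were below it. Some of these genes have more than 1 probe, so the counts of genes and of probes are not alike. GAB2, a docking protein in that list, was over 2-fold higher in all lines, with log2 fold changes of 5.97, 1.34, and 4.74, and was not called (adjusted p = 0.0665), although with normexp it was (3.13, adjusted p = 0.0472).

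Among 14 genes of receptor down-regulation, 2 were called higher (14.3%), beside 9.69% of all gene names called in either direction, and 12 were not called. PTPRJ, a receptor phosphatase that acts on EGFR, was at -0.90 (siCtrl) and 1.53 (siDLEU1-2) in HSC-3, at 0.16 and 1.83 in KON, and at -1.21 and 0.47 in Ca9-22. All siDLEU1-2 values lay above all siCtrl values, by a mean of 1.93 ± 0.44 (adjusted p = 0.0247 from limma). CBL, a ubiquitin ligase that sends EGFR to the lysosome, was higher by 0.89 ± 0.29, with a limma adjusted p of 0.0495, and the call was lost with quantile normalization and both other centerings (adjusted p = 0.0516 to 0.0548). Of 18 genes of the RAS-RAF-ERK and PI3K-AKT arms, PIK3CA, the catalytic subunit of PI3K alpha, was the only gene called (5.56%), lower at both of its probes. Its mean fold changes were -1.13 ± 0.45 (adjusted p = 0.0490, or 0.0518 with quantile normalization) and -1.54 ± 0.42 (adjusted p = 0.0305).

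Of 15 early targets, 3 were called, all lower, where 9.69% of all gene names were called in either direction. EGR1, an immediate-early transcription factor induced by ERK, was at 3.70 (siCtrl) and 1.13 (siDLEU1-2) in HSC-3, at 1.69 and 0.37 in KON, and at 1.77 and 0.06 in Ca9-22. All its siDLEU1-2 values lay below all its siCtrl values, by a mean of -1.87 ± 0.64 (adjusted p = 0.0329 from limma). DUSP6, a phosphatase of ERK that is itself an ERK target, was lower by -1.09 ± 0.28 (adjusted p = 0.0346). ETV5, an ETS factor downstream of ERK, was lower by -2.30 ± 0.94 (adjusted p = 0.0388). It was not well above background after siDLEU1-2 in HSC-3, and this mean uses the dim value as measured. The ETV5 mean was -1.87 with dim values set to the floor of detection (limma adjusted p = 0.0207). With normexp it was -1.01 (adjusted p = 0.0150). The other 12 early targets, among them FOS, FOSL1, JUN, MYC, and CCND1, were not called. With normexp, however, SPRY2 (0.68, adjusted p = 0.0438 from limma) and LIF (0.86, adjusted p = 0.0322) were called higher, so that the direction was then mixed. Over all lists, normexp called 8 genes higher and 6 lower (22.6%), beside 13.1% of all gene names, and added RHBDF1, GAB2, CBLB, SPRY2, and LIF to the higher and SRC and SOCS4 to the lower. These names, other than GAB2, were chosen after their values were seen.

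**Figure D4:**
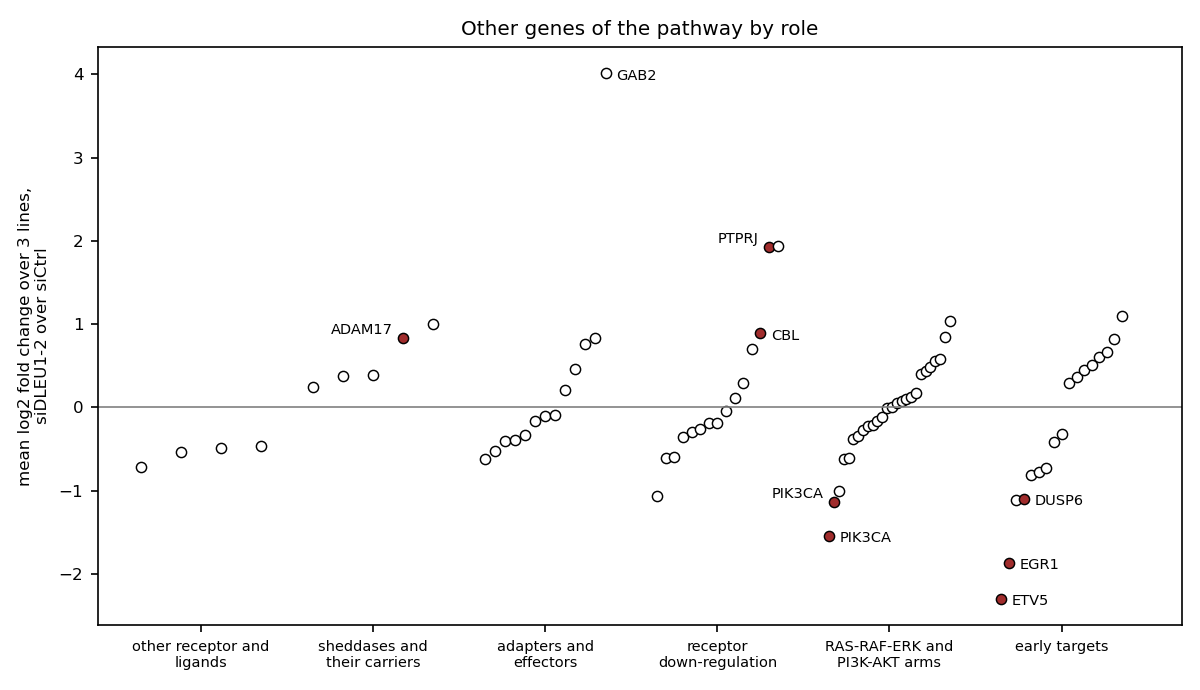
Mean log2 fold change over 3 lines (y axis, siDLEU1-2 over siCtrl) of each tested probe of the 67 pathway genes, grouped by role on the x axis and sorted within a group. Filled points were called by limma, and names are given for genes called or over 2-fold in all lines. ADAM17, CBL, and PTPRJ are called above 0, and PIK3CA (both probes), EGR1, DUSP6, and ETV5 below 0, while GAB2 is the highest point and is not called.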

How the data were processed

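Gene expression was measured on 6 SurePrint G3 single-color arrays. The authors deposited Feature Extraction 10.7.3.1 output, in which the intensity of each spot is background-subtracted and not normalized between arrays. Probe positions are on hg19, per the file headers. From these, log2 of the processed signal minus the 75th percentile of the array was taken. Outlier spots were left out, spots of a probe were averaged, and at least 50% of the spots of a probe had to be well above background for the probe to count as such. Of 50599 probes, 19956 passed the filter.

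limma 3.58.1 (lmFit and eBayes) in R 4.3.3 was fitted with siRNA and cell line as terms, with Benjamini-Hochberg adjustment over all tested probes. Both siRNAs were tested in each line, so line was the block, and deviations of paired arrays correlated at 0.83, 0.81, and 0.82. The number of arrays limits the precision. The p-values rest on how far fold changes differ between lines, with variances moderated over all tested probes by eBayes. Error of culture and array is part of that difference and cannot be told apart from it. The tests between lines use the same variances, and the spread of repeat cultures of 1 line was not measured. The fit was tested on simulated data. With 3 lines an exact sign-flip test could not pass, so none is given. The family and the lists were chosen with earlier results of these data known. Named genes are the members, pathway genes called or over 2-fold in all lines, the 3 probes most like EGFR and ERRFI1, DLEU1, and markers of squamous, leukocyte, endothelial, fibroblast, and melanocyte cells. Some other pathway genes are named outside this rule, as not tested, as not called, or as called only with normexp. The alternatives were quantile normalization, 2 other centerings, normexp (offset 50), the authors' series table, 2 filters, a floor for dim values, omission of each line or of the block, the methods' t-test, and folds of 1.5 and 3. All arrays were on 1 slide, so no slide block was fitted.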

Additional observations from a re-analysis of the deposited data

Results flagged for a closer look

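Differences between lines stood out for 3 ligands, whose log2 fold changes (siDLEU1-2 over siCtrl) had opposite signs and exceeded 0.18 in lines where both arrays were well above background. The dimmer TGFA probe gave 0.24 in HSC-3, then -0.43 in KON and -1.01 in Ca9-22. EREG was at -0.36 in HSC-3 and 1.11 in KON. HBEGF gave -0.88 in HSC-3 and -1.12 in KON but 0.27 in Ca9-22. BTC also had opposite signs but was not well above background after siDLEU1-2 in KON and Ca9-22, so its falls there have only bounds, at least 1.59-fold and 1.85-fold lower, beside a 1.95-fold higher value in HSC-3. With 1 array per line and siRNA, these differences between lines were not tested.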

How the results depend on the processing

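The calls between siRNAs rest on the block and on the filter. Without a filter on dim probes, 0 family probes were called by limma (6 had an unadjusted p below 0.05), 0 pathway genes were (30 unadjusted), and DLEU1 at -3.72 was not (adjusted p = 0.141). Without the replicate block, 0 family probes (1 unadjusted) and 0 pathway genes (11 unadjusted) were called, and DLEU1 at -3.72 was not (adjusted p = 0.183). By the methods' t-test the counts after adjustment were 0 for family probes (1 unadjusted), 0 between lines (5 unadjusted), and 0 for pathway genes (10 unadjusted), with DLEU1 at -3.72 (adjusted p = 0.331). Between siRNAs, these settings called 0 of 50544, 0 of 19956, and 0 of 19956 of all probes, with 6816, 1357, and 1373 below an unadjusted p of 0.05. Between lines, 8 of 17 family probes (47.1%) were called without the filter, beside 18.9% of all probes, and the methods' t-test called 9 of all 19956. Pathway genes called numbered 14 with normexp and 12 of 58 (20.7%) with probes well above background on all 6 arrays, where 12.8% of all gene names were called. Leaving out HSC-3, KON, or Ca9-22, limma called 0, 0, and 244 of all 19956 probes (4547, 4676, and 4395 unadjusted), so these fits say little about single calls. In them, 0 to 1 family probes were called (ERRFI1 without Ca9-22; 8, 5, and 5 unadjusted) and 0 pathway genes (25, 30, and 22 unadjusted). Over 2-fold in the lines left were 1 to 2 family probes (EGFR NM_005228 joined without HSC-3), beside 6.55% to 6.90% of all probes. Between lines 3 to 8 were called (5 without HSC-3, or 35.7% beside 27.6% of all probes, 3 without KON, or 21.4% beside 30.8%, and 8 without Ca9-22, or 57.1% beside 29.8%). DLEU1 was at -3.87 to -3.54, with -3.77 without KON (adjusted p = 0.0467 to 0.103). At 1.5-fold in either direction, 4 of the 14 family probes (28.6%) passed in all lines, beside 11.8% of all probes, and 1 of them, BTC, had opposite directions between lines. Signs turned for ERBB3 NM_001005915 without KON (0.022) and for BTC without Ca9-22 (0.14), neither of them called. The 5 main results are the family probes called, over 2-fold, and called between lines, the pathway genes called, and DLEU1. Quantile normalization, both other centerings, the series table, and the floor for dim values left each of them within 1.5 times its value and on its side of the threshold. Shares and single calls still moved. Pathway genes called were 11.3% beside 9.69% of all gene names in the main fit, but 8.06% beside 9.78% with centering on the median. Calls of ADAM17, CBL, and 1 PIK3CA probe were lost in some of these settings. The cause of these dependences was not tested. EPGN was not well above background on any array, and BTC has only bounds in KON and Ca9-22.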
